A study of Homo sapiens with 2 samples.

Results

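PHGDH, PSAT1 and PSPH encode the enzymes that make serine from the glycolytic intermediate 3-phosphoglycerate, and their transcripts were followed in MDA-MB-231 cells before and after adaptation to a medium without methionine. The 3 genes were taken by symbol from the 36601 genes of the deposited matrices, with no filter on their values. The set itself was chosen with earlier results of these data known. The question put to the data was at which step, if any, this line lacks transcripts.

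MDA-MB-231 is an established triple-negative breast cancer line, used here to ask how cells adapt when methionine is replaced by its precursor homocysteine. The D21 library holds revertant cells kept for 21 days in methionine-free medium that contained homocysteine (100 µM) and vitamin B12 (1.5 µM). The D0 library holds parental cells grown with 100 µM methionine, and the vitamin B12 of their medium is not given in the labels of this sample. The study's methods name the addition of 1.5 µM vitamin B12 for homocysteine media and mention none for methionine medium. The labels give custom RPMI 1640 with dialysed serum for both samples, and the study's recipe of that medium lists serine and glycine, while its methods describe routine culture of the line in RPMI-1640 with serum not called dialysed. The labels name 1 library per condition and no repeat cultures, so no test was possible, and D21 differs from D0 in methionine, homocysteine, time and perhaps vitamin B12 together. Every interval below is a 95% interval for counting error only and leaves out the variation between cultures.

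PHGDH, phosphoglycerate dehydrogenase, oxidises 3-phosphoglycerate and is the step that commits it to serine. PSAT1, phosphoserine aminotransferase, then moves an amino group from glutamate onto the product with the help of pyridoxal phosphate, and PSPH, phosphoserine phosphatase, releases free serine. The pathway supplies glycine and folate-bound carbon units, is induced by the transcription factor ATF4 when amino acids run short, and is known in breast cancer for the amplification and high level of PHGDH in some tumours and its low level in others.

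The promoters of the genes are shown because the members differed in level and in their relation to ATF4 target genes within the cells. The RefSeq table (GRCh38.p14) held PHGDH and PSAT1, as 250 bases before to 50 bases after the start, on the + strand at chr1:119711684-119711983 and chr9:78296875-78297174. PSPH was not among its entries. Capitals mark CG dinucleotides, read 5′ to 3′.
PHGDH: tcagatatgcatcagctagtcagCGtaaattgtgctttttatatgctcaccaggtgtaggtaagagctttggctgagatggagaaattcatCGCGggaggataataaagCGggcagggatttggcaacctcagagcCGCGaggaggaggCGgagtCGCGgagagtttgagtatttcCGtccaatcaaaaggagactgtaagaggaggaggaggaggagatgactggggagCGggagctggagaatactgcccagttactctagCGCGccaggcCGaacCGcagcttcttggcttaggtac
PSAT1: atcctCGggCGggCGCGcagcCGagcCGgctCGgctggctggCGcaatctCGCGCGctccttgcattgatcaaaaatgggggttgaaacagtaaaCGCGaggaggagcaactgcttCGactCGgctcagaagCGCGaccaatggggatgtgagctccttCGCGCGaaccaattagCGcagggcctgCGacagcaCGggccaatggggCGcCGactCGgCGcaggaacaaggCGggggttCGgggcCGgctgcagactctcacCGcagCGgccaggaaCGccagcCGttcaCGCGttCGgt
The PSAT1 window held 37 CG dinucleotides and the PHGDH window 15, against a median of 14 over 35116 promoters of the table. At least as many as PSAT1 were found in 11.3% of promoters, and at least as many as PHGDH in 48.9%. The letters TGATGNAAN and TTGCATCA, both forms of the element that ATF4 binds with C/EBP partners, were searched on both strands. Neither was found in these windows, and they occur in 3.61% and 0.866% of all promoters of the same length. Elements outside these 300 bases were not searched.

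In the GENCODE 29 annotation of GRCh38, PHGDH lies at chr1:119648411-119744226 (+ strand), PSAT1 at chr9:78297143-78330093 (+ strand) and PSPH at chr7:56011051-56051604 (− strand). The PHGDH promoter window of RefSeq lies inside the longer GENCODE span of that gene. No other gene of the annotation overlaps any member. The annotation names 4 pseudogenes after PSAT1 and 1 after PSPH, none of which has a row in the matrices, and the last 500 bases of the members' transcripts had no match by blastn among the transcripts of these pseudogenes.

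The deposited values are UMI counts from 10x Genomics 3′ libraries, in which a UMI stands for a captured transcript and is read near its 3′ end, so that levels do not scale with transcript length. A barcode was taken as a cell if its UMIs reached 10% of the 99th percentile found among the 5000 largest barcodes of its library, if it had 500 genes or more and if mitochondrial genes held no more than 20% of its UMIs. This gave 12487 cells at D21 with a median of 12022 UMIs and 7492 cells at D0 with a median of 18908 UMIs. The cells held 182839048 UMIs at D21 and 183098116 UMIs at D0, and 21 cell barcodes occurred in both libraries. VIM, CD44, EGFR, KRT7, KRT18, KRT8, AXL and CAV1, which MDA-MB-231 expresses, were at 227 to 2876 CPM at D21 and at 200.3 to 4157 CPM at D0 (CPM, the UMIs of a gene per 1000000 UMIs of the cells), whereas ESR1 and PGR were under 1 CPM and ERBB2 was at 10.2 CPM at D21 and 11.8 CPM at D0. The 11 markers of blood, fibroblasts, liver, islet and glia summed to 1.97 CPM at D21 and 3.09 CPM at D0, with INS at 0 in both and COL1A1 the highest, at 0.525 CPM at D21 and 1.05 CPM at D0.

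None of the 3 steps lacked transcripts in either library, and PHGDH, the first step, was the lowest. PHGDH had 1729 UMIs at D21 and 1673 UMIs at D0, which is 9.46 CPM (9.02 to 9.91) at D21 and 9.14 CPM (8.70 to 9.59) at D0. PSAT1, the second step, had 21440 UMIs at D21 and 14177 UMIs at D0, or 117 CPM (116 to 119) and 77.4 CPM (76.2 to 78.7). PSPH, the last step, had 5667 UMIs at D21 and 4850 UMIs at D0, or 31.0 CPM (30.2 to 31.8) and 26.5 CPM (25.7 to 27.2). The order PSAT1, PSPH, PHGDH was the same in both libraries, and no interval of one member reached that of the next.

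Against PHGDH, the PSAT1 level was 12.4 times as high at D21 (11.8 to 13.0) and 8.47 times as high at D0 (8.05 to 8.92). The PSPH level was 3.28 times that of PHGDH at D21 (3.11 to 3.46) and 2.90 times at D0 (2.74 to 3.07). PHGDH thus made up 5.996% of the 158 CPM of the pathway at D21 and 8.08% of the 113 CPM at D0. How efficiently each transcript is captured is not calibrated here, so these are ratios of captured tags. Among the 28824 genes with a UMI at D21 and the 28488 at D0, 68.7% and 67.6% were below PHGDH, 95.4% and 92.3% below PSAT1, and 82.7% and 80.2% below PSPH.

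Free RNA was read from barcodes of 1 to 100 UMIs, which are mostly empty droplets. PHGDH had 69 UMIs there at D21 and 72 UMIs at D0, or 11.9 CPM (9.27 to 15.1) and 9.98 CPM (7.81 to 12.6), so its level in cells was not above that outside them. PSAT1 stood at 110 CPM (102 to 119) at D21 and 67.7 CPM (61.9 to 74.0) at D0 in these barcodes, where the D0 interval lies below that of the cells. PSPH stood at 26.6 CPM (22.6 to 31.1) at D21 and 23.1 CPM (19.8 to 26.9) at D0, with intervals that overlap those of the cells. Over all barcodes that were not cells, PSAT1 was at 90.2 CPM (85.7 to 94.8) at D21 and 66.6 CPM (62.7 to 70.6) at D0, below its level in cells in both libraries. PSPH was at 25.3 CPM (22.9 to 27.8) at D21 and 23.9 CPM (21.6 to 26.4) at D0 there, and PHGDH at 8.30 CPM (6.99 to 9.79) at D21 and 7.90 CPM (6.61 to 9.37) at D0, so that only the D21 interval of PSPH lay apart from that of the cells. The libraries hold 1 cell line and no cell type that should lack these transcripts, so free RNA comes from the same cells. A like level in and outside cells therefore cannot show whether the UMIs in cells are free RNA. The distribution of PHGDH among cells is given further on.

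Between the conditions, PSAT1 was 1.51 times as high at D21 as at D0 (1.48 to 1.55), PSPH 1.17 times (1.13 to 1.22) and PHGDH 1.03 times (0.967 to 1.11). The interval of PHGDH holds 1, and those of PSAT1 and PSPH lie above it. Of the 6867 genes that reached 20 CPM at D21 or D0, called measured here, 1.12% were at least 1.5 times as high at D21 and 3.47% at most 1/1.5 times as high. Of the members, PSAT1 was past this mark, PSPH was not, and PHGDH was under 20 CPM in both libraries and so not among the measured genes. The median log2 ratio of the measured genes was -0.00298, and 70 of them had a ratio at or above that of PSAT1, while 86.9% had a ratio below that of PSPH. PSAT1 sat at the mark itself, and with the UMI minimum for cells set at 20% instead of 10% of the 99th percentile its ratio was 1.49. In cells of 10000 to 20000 UMIs, whose median was 13477 UMIs at D21 and 14645 UMIs at D0, it was 1.82.

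The share of cells with a UMI followed the same order of genes. After each cell was thinned to 5000 UMIs, so that the libraries could be compared, PSAT1 was detected in 39.6% of D21 cells (38.7 to 40.5%) and 26.9% of D0 cells (25.9 to 27.9%). PSPH was detected in 14.0% (13.4 to 14.6%) of D21 cells and 11.5% (10.8 to 12.3%) of D0 cells. PHGDH was detected in 4.51% (4.15 to 4.89%) of D21 cells and 4.004% (3.57 to 4.47%) of D0 cells, and the intervals of these shares overlap. No cell was left out by the thinning.

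With all UMIs counted, the shares were 66.5% at D21 and 62.5% at D0 for PSAT1, 33.3% and 40.5% for PSPH, and 11.3% and 15.6% for PHGDH. The order of the libraries for PSPH and PHGDH thus turned with depth, and it is the equal-depth share that goes with the CPM. No D21 cell had more than 5 PHGDH UMIs and no D0 cell more than 7, against a maximum of 28 at D21 and 23 at D0 for PSAT1.

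The enzymes were seldom captured together in a cell. At 5000 UMIs, 42 of 12487 D21 cells (0.336%) and 26 of 7492 D0 cells (0.347%) had a UMI of all 3. PSAT1 and PSPH shared 6.24% of D21 cells and 3.88% of D0 cells, and a UMI of either without PHGDH was seen in 44.9% of D21 cells and 32.5% of D0 cells. None of the 3 was captured in 50.6% of D21 cells and 63.5% of D0 cells. At this depth a transcript as scarce as PHGDH is captured in few cells even where each holds some, so a cell without a UMI is not a cell without the transcript.

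PHGDH and PSPH were lowest in cells without a PSAT1 UMI and highest in those with 3 or more. At D21, PHGDH was at 8.17 CPM (7.28 to 9.13) in the 7543 cells without a PSAT1 UMI at 5000 UMIs, 10.6 CPM (9.12 to 12.3) with 1, 13.8 CPM (10.95 to 17.2) with 2 and 17.9 CPM (12.5 to 24.9) with 3 or more. At D0 the same classes had 6.57 CPM (5.65 to 7.61), 13.0 CPM (10.6 to 15.9), 15.8 CPM (10.5 to 22.8) and 21.3 CPM (11.9 to 35.1). PHGDH thus stood higher with each step of PSAT1 in both libraries, although the intervals of neighbouring classes overlap, except those of 0 and 1 UMI at D0. PSPH at D21 was at 28.2 CPM (26.6 to 30.0), 33.5 CPM (30.8 to 36.4), 33.1 CPM (28.5 to 38.2) and 46.5 CPM (37.5 to 57.1) in the same classes, with no step up between 1 and 2 PSAT1 UMIs. At D0 it was at 22.5 CPM (20.8 to 24.4), 29.6 CPM (25.9 to 33.7), 37.7 CPM (29.3 to 47.9) and 44.0 CPM (29.9 to 62.4). As a description, the Pearson correlation of log(1 + UMIs) at this depth over the 12487 D21 cells and 7492 D0 cells was 0.04 and 0.06 for PSAT1 with PSPH, 0.05 and 0.08 for PSAT1 with PHGDH, and 0.00 and 0.04 for PSPH with PHGDH. Such low values in sparse counts rank no pair.

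PHGDH was less evenly spread over cells than its level and the cells' depths alone give. With all UMIs counted, 254 D21 cells had at least 2 PHGDH UMIs where depth alone gives 137, and 350 D0 cells where it gives 202. The observed count was 1.85 times that number at D21 and 1.73 times at D0, while the median over the 1330 genes of nearly its level at D21 was 1.249 times, and over the 1239 such genes at D0 1.20 times. The cells with any UMI were fewer than depth alone gives for each enzyme. PHGDH had a UMI in 1415 D21 cells against 1580 by depth and in 1169 D0 cells against 1440. PSAT1 had one in 8304 D21 cells against 9413 by depth and in 4682 D0 cells against 5790, and PSPH in 4158 D21 cells against 4309 and in 3034 D0 cells against 3288. Cells with at least 2 PSAT1 UMIs were 0.906 times the number by depth at D21 and 0.834 times at D0. The medians over genes of nearly its level were 0.941 and 0.939. For PSPH the values were 1.05 at D21 and 1.06 at D0, against medians of 1.06 and 1.02. No such median was computed for cells with any UMI, so those shortfalls cannot be called particular to these enzymes.

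Cells with at least 2 PHGDH UMIs had more MMP1, an interstitial collagenase, SRGN, the proteoglycan serglycin, and PDE1C, a cyclic nucleotide phosphodiesterase. These 3 genes were picked after their values in those cells had been seen. At D21 they stood at 144, 106 and 23.4 CPM there, against 83.1, 47.9 and 7.19 CPM in the other D21 cells. At D0 they stood at 31.6, 56.5 and 19.6 CPM there, against 7.35, 24.7 and 6.91 CPM in the other D0 cells. In the 3115 D21 cells with a UMI of any of the 3 at 5000 UMIs, PHGDH was at 14.4 CPM (13.4 to 15.5), against 7.60 CPM (7.14 to 8.08) in the other 9372, a ratio of 1.90 (1.72 to 2.09). In the 845 such D0 cells it was at 15.4 CPM (13.9 to 17.0), against 8.16 CPM (7.72 to 8.61) in the other 6647, a ratio of 1.89 (1.68 to 2.12). Since the 3 genes were picked through PHGDH, these ratios restate that choice, which their intervals do not cover. These cells held 41.4% of the PHGDH UMIs and 27.1% of all UMIs at D21, and 22.8% of the PHGDH UMIs and 13.6% of all UMIs at D0. PSAT1 differed less between the same kinds of cells, by a ratio of 1.16 at D21 and 1.19 at D0, and PSPH by 1.06 (0.996 to 1.12) at D21 and 0.988 (0.908 to 1.07) at D0. Because the class was picked through PHGDH, these smaller differences carry no weight. In the cells with at least 2 PHGDH UMIs, PSAT1 was at 183 CPM against 115 CPM in the other D21 cells. At D0 it was at 123 CPM against 73.6 CPM. PSPH was at 35.6 CPM against 30.9 CPM at D21 and at 32.5 CPM against 26.0 CPM at D0. Cells with a UMI of MMP1, SRGN or PDE1C were 24.9% of the cells at D21 and 11.3% at D0. Within them and outside them PHGDH had a D21 to D0 ratio of 0.939 (0.828 to 1.07) and 0.932 (0.857 to 1.01). The class differs in make-up, since MMP1 was at 84.9 CPM at D21 and 9.24 CPM at D0. At 5000 UMIs, 1683 D21 cells and 103 D0 cells had an MMP1 UMI, and 1925 and 645 had an SRGN UMI. The shares and ratios may thus not compare like cells.

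A similar division by genes that mark the main cell states of this line gave other orders. AGR2, SPANXB1 and SOX4 mark one state and CEMIP, SAA1 and SAA2 another, both taken from earlier results of these data. PHGDH was at 7.60 CPM in D21 cells with UMIs of the CEMIP list only and 10.8 CPM in those with the AGR2 list only, a ratio of 0.701 (0.620 to 0.793), and at 8.33 CPM and 9.71 CPM at D0, a ratio of 0.857 (0.750 to 0.978). PSAT1 ran the other way, with a ratio of 1.35 (1.31 to 1.41) at D21 and 1.05 (1.01 to 1.10) at D0, and PSPH likewise, at 1.23 (1.14 to 1.32) and 1.19 (1.10 to 1.28). Cells with the CEMIP list only were 42.0% of the cells at D21 and 18.1% at D0. In each of the 4 classes of this division PSAT1 was higher at D21 than at D0, by 1.28 to 1.64 times.

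Within each library, all 3 enzymes were higher in cells with a larger share of UMIs from a list of 20 genes, ATF4 and known targets of it, members left out. The cells of each library were ordered by that share and cut into 4 ranges of equal size. In the top range of D21 cells PSAT1 was at 159 CPM, against 72.3 CPM in the bottom range, a ratio of 2.21 (2.11 to 2.31). In D0 cells it was at 127 CPM in the top and 35.7 CPM in the bottom range, a ratio of 3.55 (3.34 to 3.78). PSPH had ratios of 1.54 (1.42 to 1.67) at D21 and 2.08 (1.90 to 2.29) at D0, and PHGDH of 1.37 (1.19 to 1.58) at D21 and 2.23 (1.90 to 2.64) at D0. The bottom range also had fewer UMIs per cell, with a median of 9904 at D21 and 15697 at D0, against 12505 at D21 and 20172 at D0 in the top range. Ranges by UMIs per cell alone gave PSAT1 a ratio of top over bottom of 1.33 at D21 and 1.45 at D0, PSPH 1.13 and 1.17, and PHGDH 1.04 and 1.27.

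**Figure D1:**
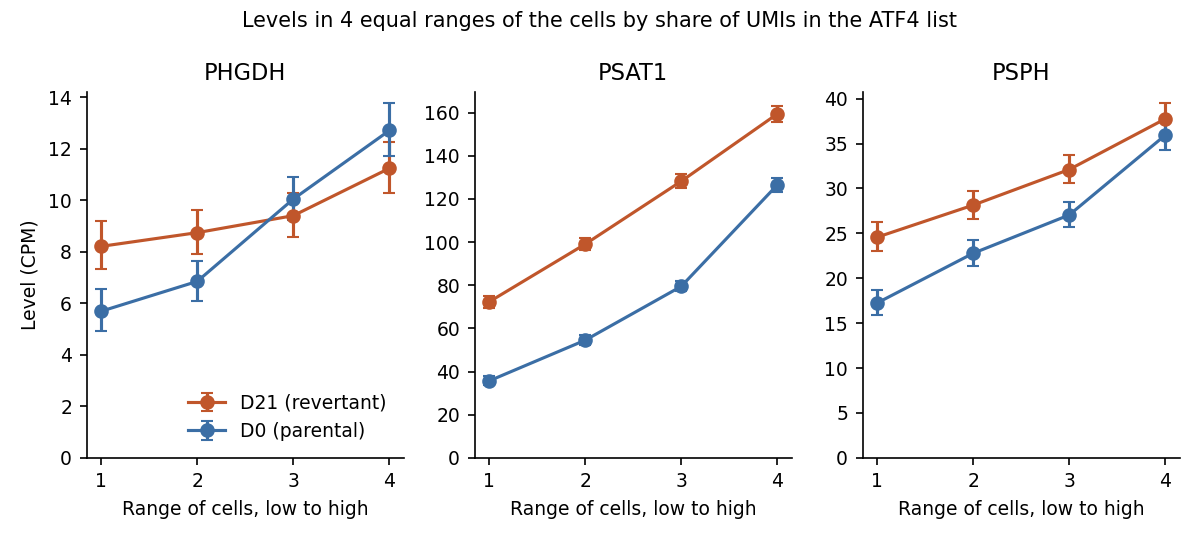
Level in CPM (y axis, a scale for each gene) of the 3 enzymes in 4 equal ranges of the D21 and D0 cells ordered by the share of UMIs from ATF4 and its targets (x axis), with 95% Poisson intervals. PSAT1 spans 72.3 to 159 CPM at D21 and 35.7 to 127 CPM at D0, and the PHGDH lines cross, with D21 above D0 in the bottom range and below it in the top range.

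The D21 to D0 ratio of PSAT1 was above 1 in every range, at 2.03 in the bottom and 1.26 in the top. PSPH ran between 1.42 and 1.05 in the same order. PHGDH was higher at D21 in the bottom range, at 8.21 CPM against 5.69 CPM at D0, and lower in the top range, at 11.2 CPM against 12.7 CPM at D0.

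The cell cycle went with PSAT1 too. By the share of UMIs from G2 and M phase genes, PSAT1 was at 141 CPM in the top range of D21 cells and 74.7 CPM in the bottom, and at 97.8 CPM and 56.8 CPM in D0 cells. PHGDH was 1.50 times (1.29 to 1.75) as high in the top as in the bottom range at D21 and 1.91 times (1.63 to 2.26) at D0. PSPH showed less of this, at 1.18 times (1.09 to 1.28) at D21 and 1.01 times (0.921 to 1.10) at D0. By S phase genes, PSAT1 had a ratio of 1.65 at D21 and 1.26 at D0. PSAT1 was higher at D21 than at D0 in every range of either kind, by 1.26 to 1.68 times. What part depth, cell cycle and ATF4 targets have in each other was not tested.

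As a description, the genes that varied most like PSAT1 over cells of both libraries, by the lower Pearson r of the libraries among 6364 genes with at least 20 CPM in both, were EIF4EBP1, a repressor of cap-dependent translation, with 0.13, ANP32B and HMGB2 with 0.12 each, the histone gene H2AFZ with 0.12 and the neutral amino acid transporter SLC1A5 with 0.11. HMGB2 is also on the G2 and M list used here. For PSPH they were the cystine transporter subunit SLC7A11, the tRNA synthetases GARS and YARS, PSAT1, and the chromatin regulator ANKRD11, with 0.04 to 0.05. At 2500 UMIs the values for PSPH were 0.00748 to 0.0179 and those for PSAT1 0.0485 to 0.0754, and the order changed, with GARS above SLC7A11 and ANP32B the lowest of its 5, so the names describe these counts and their order carries no weight. All are weak correlations over 12487 and 7492 cells of a single library each, and the cells share depth and cycle. PHGDH was too low for this ranking.

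Upstream of the pathway, transcripts of lower glycolysis were lower at D21. All 8 genes of the list were measured and lower at D21, 7 of them past 1.5-fold, with a median log2 ratio of -0.69 against -0.00298 for all measured genes. Of all 6867 measured genes, 3476 were lower and 3.47% were lower past 1.5-fold. PGK1, the kinase that makes 3-phosphoglycerate, was at 565 CPM at D21 and 1020 CPM at D0. ENO1, an enolase downstream of the branch, was at 1168 CPM and 1953 CPM, TPI1, triose phosphate isomerase, at 699 CPM and 1154 CPM, and the aldolase ALDOA at 15.6 CPM and 25.5 CPM, where an overlapping gene on the same strand makes the last count uncertain. The direction of the list was thus opposite to that of PSAT1 and PSPH.

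Glutamate is the amino donor of PSAT1 and becomes 2-oxoglutarate there. Of 6 measured genes of this list 2 were higher and 4 lower, none past 1.5-fold (median log2 ratio -0.07). The mitochondrial aspartate aminotransferase GOT2 was at 54.3 CPM at D21 and 43.8 CPM at D0, its cytosolic counterpart GOT1 at 42.7 CPM and 47.0 CPM, and ALDH18A1, which uses glutamate for proline, at 23.6 CPM and 26.1 CPM. PDXK, the kinase that makes pyridoxal phosphate, was at 68.0 CPM at D21 and 80.0 CPM at D0.

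Serine can also be taken up. Of 5 measured transporters 3 were higher and 2 lower, none past 1.5-fold (median log2 ratio 0.01). SLC38A2, a neutral amino acid transporter, was at 126 CPM at D21 and 158 CPM at D0, SLC38A1 at 132 CPM and 125 CPM, the mitochondrial serine carrier SFXN1 at 65.9 CPM and 63.4 CPM, and its relative SFXN3 at 19.8 CPM and 28.5 CPM.

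Downstream, 7 of 8 measured genes that turn serine into glycine and folate-bound carbon units were higher and 1 lower at D21, none past 1.5-fold, with a median log2 ratio of 0.15. Over all 6867 measured genes, 3391 were higher and 3476 lower. MTHFD2, a mitochondrial folate dehydrogenase and known ATF4 target, was at 42.5 CPM at D21 and 33.4 CPM at D0, MTHFD1L at 111 CPM and 93.6 CPM, MTHFD1 at 54.7 CPM and 48.97 CPM, and GCSH, a subunit of the glycine cleavage system, at 82.0 CPM and 67.8 CPM. The 1 lower gene was SHMT2, the mitochondrial serine hydroxymethyltransferase, at 59.5 CPM at D21 and 65.6 CPM at D0. GLDC, the decarboxylase of the glycine cleavage system, was at 0.219 CPM and 0.257 CPM. Of the genes that pass serine to cysteine, CTH was at 14.2 CPM at D21 and 13.6 CPM at D0, and the count of CBS is uncertain because a near-identical copy shares its reads.

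Serine also enters lipids. Of 12 measured genes of sphingolipid and phosphatidylserine synthesis 5 were higher and 7 lower, none past 1.5-fold (median log2 ratio -0.06), with the phosphatidylserine synthase PTDSS2 at 21.3 CPM at D21 and 27.8 CPM at D0, the regulators ORMDL1 at 90.3 CPM and 76.4 CPM and ORMDL2 at 37.2 CPM and 47.3 CPM, and the reductase KDSR at 56.8 CPM and 46.4 CPM. SDSL, a serine dehydratase-like enzyme and the 1 measured gene of serine degradation, was at 39.8 CPM at D21 and 20.7 CPM at D0, a ratio of 1.93 (1.85 to 2.01).

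ATF4 targets other than the members had no shared direction between the libraries. Of 13 measured genes 7 were higher and 6 lower at D21, 1 and 2 of them past 1.5-fold, with a median log2 ratio of 0.07. Over all measured genes, 1.12% were higher and 3.47% lower past 1.5-fold. The stress protein gene NUPR1 was at 46.4 CPM at D21 and 22.4 CPM at D0, and the amino acid transporter SLC7A5 at 49.7 CPM and 39.0 CPM. DDIT4, an inhibitor of mTORC1, was at 71.8 CPM at D21 and 149 CPM at D0, and the pseudokinase gene TRIB3 at 20.8 CPM and 31.4 CPM. PSAT1, with its ratio of 1.51, lay above all of the 13 except NUPR1. Of 6 measured genes reported elsewhere to regulate the pathway, 1 was higher and 5 lower, none past 1.5-fold. They include HIF1A at 229 CPM at D21 and 252 CPM at D0, NFE2L2 at 128 CPM and 132 CPM, and EHMT2, the histone methyltransferase G9a, at 23.3 CPM and 26.2 CPM.

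The genes beside the members were compared with them by position. ZNF697, on the other strand 638 bases from the GENCODE span of PHGDH, was at 12.1 CPM at D21 and 10.9 CPM at D0. HSD3B1, HSD3B2, REG4 and ADAM30 were under 1 CPM in both libraries. PHGDH thus lies among genes with few transcripts. Around PSAT1, CEP78 was at 31.7 CPM at D21 and 28.4 CPM at D0, GNAQ at 73.6 CPM and 61.6 CPM and TLE1 at 136 CPM and 119 CPM, with ratios of 1.12, 1.19 and 1.15 against 1.51 for PSAT1, and GNA14, TLE4 and SPATA31D4 were under 1 CPM. CCT6A, a chaperonin subunit gene 26 bases from PSPH on the other strand, was at 370.1 CPM at D21 and 343 CPM at D0, a ratio of 1.08. The other neighbours of PSPH had ratios of 0.965 (NIPSNAP2), 1.21 (MRPS17), 0.834 (SUMF2) and 1.22 (PHKG1), and AC092647.5 had no row in the matrices.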

How the data were processed

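The values deposited by the authors are UMI counts per gene and barcode, made with Cell Ranger 4 per the file headers from 10x Genomics 3′ v3.1 libraries, with GRCh38 named in the submitters' processing notes. They are not normalised and include empty droplets. The sources used here do not name the annotation or the aligner's settings. In all there were 199817213 UMIs (D21) and 199799447 UMIs (D0), and 91.5% and 91.6% of them lay in cells.

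Cells were barcodes with at least 10% of the 99th percentile of UMIs among the top 5000 barcodes, which left 12525 barcodes at D21 and 7503 at D0, of which the limits on genes and mitochondrial UMIs removed 38 and 11. No doublet caller was run, and doublets were treated only by an alternative without the 6% of cells with the most UMIs. Counts were summed over cells and scaled to CPM. Levels have exact Poisson intervals, shares exact binomial (Clopper-Pearson) intervals and ratios exact conditional intervals for Poisson counts, all for counting error only. PCR duplicates are removed by the UMIs. For shares, each cell was thinned at random to 5000 UMIs. The 4 equal ranges of cells were cut by the share of all UMIs of a cell in a list. The software was python 3.11.15, numpy 2.4.6, scipy 1.17.1, pandas 2.3.3, matplotlib 3.10.9 and blastn 2.17.0, and the computations were tested on simulated data.

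The members and all lists were chosen with earlier results of these data known. Genes named are the members, up to 4 measured genes of each list furthest from a ratio of 1, the 5 genes most like PSAT1 and PSPH, the 3 nearest protein-coding genes on each side, and line markers, and results of some genes that this rule takes are left out of the text. SHMT2, GLDC, CTH, CBS, MMP1, SRGN and PDE1C fall outside this rule and were chosen after their values were seen. Samples were grouped by the labels' treatment.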

Additional observations from a re-analysis of the deposited data

Results flagged for a closer look

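PHGDH differed between the libraries in opposite directions in different ranges of cells. In 4 equal ranges of cells by the share of UMIs from ATF4 and its targets, its D21 to D0 ratio was 1.443 (1.20 to 1.74) in the bottom range, 1.276 (1.10 to 1.48) in the second, 0.936 (0.827 to 1.06) in the third and 0.8844 (0.785 to 0.996) in the top range. The intervals of the lower ranges lie above 1 and that of the top range lies below it. They cover counting error only, the ranges were cut within each library, and the difference between ranges was not tested. A fall from bottom to top range was not particular to PHGDH. The ratio of PSAT1 went from 2.03 to 1.26 and that of PSPH from 1.42 to 1.05. Nor was it particular to the ATF4 ordering. In 4 equal ranges by UMIs per cell alone, the PHGDH ratio was 1.18 (0.958 to 1.46) in the bottom and 1.31 (1.10 to 1.55) in the second range. It was 0.958 (0.837 to 1.10) in the third and 0.968 (0.876 to 1.07) in the top range. Only the interval of the second range lies apart from 1. What part depth has in the ATF4 ranges was not tested. The ATF4 shares also rest on fewer UMIs at D21, with a median of 12022 per cell against 18908 at D0.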

How the results depend on the processing

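With 1 library per condition, the limits of these values are those of single cultures, and the depth limits PHGDH most, with 1729 UMIs at D21 and 1673 at D0. No paired analysis was possible because each condition has 1 library and no test was run. Under 9 alternatives of cell calling, mitochondrial limit, doublets and scaling, the D21 to D0 ratio ran between 0.971 and 1.21 for PHGDH, between 1.49 and 1.82 for PSAT1 and between 1.14 and 1.32 for PSPH. PHGDH was under 1 only with the UMI minimum for cells at 20% of the 99th percentile, at 0.971. Its interval in the main setting holds 1, so no direction is claimed for it. PSAT1 was at or past 1.5-fold under 8 of the 9. In cells of 10000 to 20000 UMIs the ratios were 1.21 (PHGDH), 1.82 (PSAT1) and 1.32 (PSPH), and with each cell weighing the same PHGDH was at 1.11. None of these alternatives moved the median of the measured genes by over 0.1 on the log2 scale.

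The share of cells with a UMI depends on depth. At 2500 UMIs it was 2.38% at D21 and 2.15% at D0 for PHGDH, 23.4% and 15.96% for PSAT1, and 7.08% and 5.79% for PSPH. Without thinning it was 11.3% and 15.6%, 66.5% and 62.5%, and 33.3% and 40.5%. The number of genes past 1.5-fold was 77 higher and 238 lower at D21, 197 and 481 with genes measured at 5 CPM, and 18 and 50 at 2-fold. Measuring at 5 CPM turned the sign of 3 of 9 list medians, to -0.05 for the ATF4 list, 0.13 for pyridoxal phosphate and -0.01 for serine and glycine transport, and that of serine degradation was 0.60. With the ATF4 list counted at 5000 UMIs, an alternative chosen after seeing the data, the top over bottom range ratios were smaller, at 1.19 at D21 for PHGDH, 1.77 at D21 and 2.55 at D0 for PSAT1, and 1.36 at D21 and 1.64 at D0 for PSPH. At 2500 UMIs all 10 correlations with PSAT1 or PSPH were lower and kept their sign, in another order. The cause of these movements was not tested.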
